A study of Canis lupus familiaris with 13 samples.

Results

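The Toll-like receptor family was followed in biopsies of 4 spontaneous tumors from 3 adult companion dogs. Its members were taken as every row of the count table with a symbol from TLR1 to TLR10. The table of 43427 symbols held 10 such rows for 9 receptors, since TLR9 was listed in a pair of rows, called row 1 and row 2 here. TLR6 was not analysed here. Of the 10 rows, 8 had enough counts to be tested, and TLR5 and TLR10 were at 0 counts in all 13 libraries.

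Each dog received intratumoral IMAX, a nanoparticle that joins a polyethyleneimine and lithocholic acid conjugate, described by the study as an activator of TLR5, with paclitaxel and a cyclic dinucleotide that activates STING. Dog RV was a spayed mixed-breed female with a soft tissue sarcoma. Its early biopsy followed the second dose by 2 days, and its late biopsies, from the injection site and an adjacent site, followed the third dose by 2 weeks. Dog CL, an intact female Shih Tzu, had a cranial (ductal) and a caudal (complex) mammary carcinoma, with early biopsies 1 week and late biopsies 1 month past the second dose. Dog BM was a spayed female Great Pyrenees with a left caudal mammary carcinoma, whose early and late biopsies came 1 week and 3 weeks after that dose. Each tumor also had a pretreatment biopsy. This gave 4 libraries before treatment, 4 early and 5 late. All tumors were treated, so the pretreatment biopsy of the same tumor is the baseline. Tumor type, dog, and early biopsy day cannot be told apart, and the CL tumors share a host. Except at the late RV sites, a tumor has 1 library per time point, and no change within a tumor has a replicate check.

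Library totals ranged from 11622444 to 29931125 counts on genes. The biopsies differed in makeup. The epithelial marker list summed to 26.2 to 28.2 CPM (sequencing counts scaled to a common library size) in RV before treatment and late and to 166 to 4732 CPM in the mammary tumors, where the lowest library was BM late. The mesenchymal list, which includes collagen genes, summed to 2305 CPM in BM before treatment and to 110758 CPM in BM late. The study described the treated BM mass as collagen-rich early, with neoplastic cells in small regions only. Late it reported carcinoma with areas of carcinosarcoma. BM is kept among the mammary tumors here at all time points. In the 2-day RV library the epidermal list summed to 2901 CPM, against 71.9 CPM in the RV mass before treatment. The neutrophil list summed to 7013 CPM, against 74.5 CPM, and the mesenchymal list to 3553 CPM, against 33761 CPM. The study diagnosed the 2-day RV biopsy as granulomatous to pyogranulomatous dermatitis and did not definitively identify neoplastic cells in its sections. How much of that library comes from sarcoma cells was not tested. All libraries come from bulk biopsies, so fewer cells of a type and less RNA per cell cannot be told apart.

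Toll-like receptors are membrane proteins of innate immunity that bind microbial or damage-derived molecules through leucine-rich repeats and signal through an intracellular TIR domain. TLR1, TLR2, TLR4, TLR5, and TLR10 sit mainly at the cell surface, where they meet lipoproteins, lipopolysaccharide, and flagellin. TLR3, TLR7, TLR8, and TLR9 sit in endosomes and sense nucleic acids. Most members signal through the adaptor MYD88, whereas TLR3 uses TICAM1 (TRIF) and TLR4 uses both.

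TLR8 was higher early than before treatment in all 4 tumors, with a fitted log2 fold change of 2.61. At the early time point the fitted change was above 0 for 8 of 8 rows, as it was for 60.3% of all 20118 genes tested. None of the 8 passed the threshold of 0.05 for p-values adjusted over all genes by the Benjamini-Hochberg method in edgeR's quasi-likelihood test, which 0.00497% of all genes passed. At an unadjusted p under 0.05, 3 were higher (TLR4, TLR7, and TLR8), against 7.70% of all genes. DESeq2 in place of edgeR called 1 of the rows, TLR8 (4.65% of all genes), and put 5 at an unadjusted p under 0.05 (19.7% of all genes). The median change was 1.14 log2 over the 8 rows and 0.25 over all genes.

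**Figure D1:**
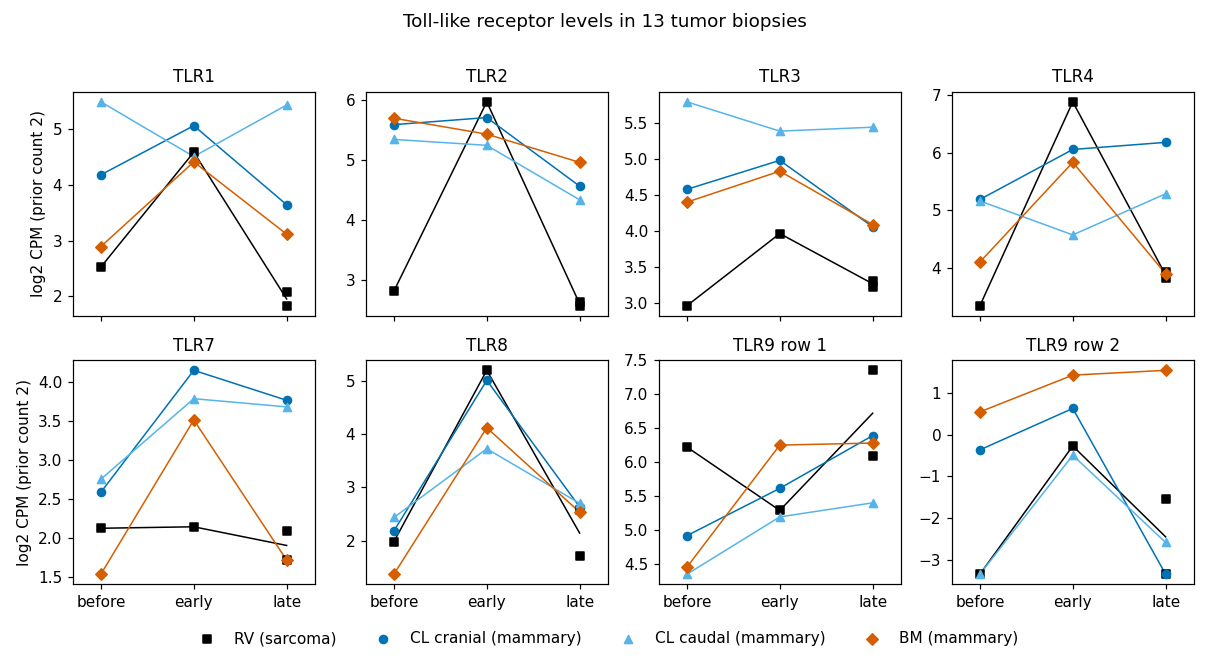
Log2 CPM with a prior count of 2 (vertical axes, different scales) of the 8 tested rows before treatment, early, and late. Each point is 1 library and lines join the libraries of a tumor, through the mean of both sites for RV late. In the TLR8 panel the 4 early points lie above all points before treatment and late, and in the TLR7 panel the RV line is nearly level between before and early (0.73 log2 apart when scaled to library totals alone).

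Among the surface receptors, TLR1 and TLR2 form a heterodimer that binds triacylated lipoproteins. TLR1 (gene 488834) lies on chromosome 3 from 74115278 to 74117647 of the UU_Cfam_GSD_1.0 assembly. Before treatment it was at 44.9 CPM in CL caudal, 18.1 CPM in CL cranial, 5.66 CPM in RV, and 7.33 CPM in BM. Early it was at 22.7, 33.4, 24.0, and 21.2 CPM in the same order. The libraries were closer together early (25.3 ± 5.49 CPM, SD, n = 4) than before treatment (19.0 ± 18.1 CPM, SD, n = 4), with CL caudal lower and the other 3 tumors higher early, and the groups overlapped. Late it was at 43.2 CPM in CL caudal, 12.4 CPM in CL cranial, 3.46 and 4.11 CPM at the RV injection and adjacent sites, and 8.57 CPM in BM. The fitted early change was 1.10 log2 (SE 0.54), with an edgeR adjusted p of 0.487 (0.55 log2 without the 2-day RV library), and the late change was -0.31 (SE 0.50, adjusted p = 0.976).

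TLR2 (gene 448807), the partner of TLR1 and also a receptor for other lipoproteins, lies on chromosome 15 from 51821784 to 51824151. Before treatment it was at 40.6 CPM in CL caudal, 48.2 CPM in CL cranial, and 51.9 CPM in BM, but at 6.93 CPM in RV. Early it was at 37.9, 52.4, 43.2, and 62.8 CPM in that order. RV thus went from the lowest of the 4 tumors to the highest of the 13 libraries, while the mammary tumors stayed near their pretreatment values. In the 2-day RV biopsy the study did not definitively identify neoplastic cells. Within the tumors the early log2 change was 3.16 for RV, against 0.12 (CL cranial), -0.10 (CL caudal), and -0.27 (BM). The fitted early change of 0.86 log2 (SE 0.58, edgeR adjusted p = 0.57) rested on RV and was 0.02 log2 without the 2-day library. Scaled to library totals alone, without TMM factors, the CL caudal value turned to 0.36.

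Late, TLR2 was at 20.1 CPM in CL caudal, 23.6 CPM in CL cranial, 31.1 CPM in BM, and 5.83 and 6.11 CPM in RV. It was below its pretreatment level in all 4 tumors (8.04% of all genes were), by -1.01, -1.03, -0.74, and -0.21 log2 in CL caudal, CL cranial, BM, and RV. The fitted late change of -0.93 log2 (SE 0.52) did not pass the edgeR test (adjusted p = 0.973). Every early library was above every late library for TLR2, as for 4.49% of all genes.

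TLR1 and TLR2 are annotated over nearly equal spans of 2370 and 2368 bases, so their levels can be compared per kilobase. TLR2 was higher per kilobase in 11 of 13 libraries, up to 7.09 times TLR1 in BM before treatment. TLR1 was higher in 2, CL caudal before treatment and late, where TLR2 was 0.905 and 0.466 times TLR1. TLR3, TLR4, TLR7, TLR8, and TLR9 are annotated over longer spans, of 10628 bases or more, and their levels were not compared with each other. TLR5 and TLR10 had 0 counts.

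TLR4 (gene 403417, chromosome 11 from 71767611 to 71778394) is the lipopolysaccharide receptor. Before treatment it was at 35.7 CPM in CL caudal, 36.4 CPM in CL cranial, 10.1 CPM in RV, and 17.1 CPM in BM. Early it was at 23.7, 66.4, 118, and 56.9 CPM in that order. RV at 2 days was the highest of the 13 libraries, 11.7-fold above the same mass before treatment, whereas CL caudal was 0.664-fold its pretreatment level. Late values were 39.0 CPM in CL caudal, 72.4 CPM in CL cranial, 15.1 and 14.1 CPM in RV, and 14.8 CPM in BM. The fitted early change was 1.68 log2 (SE 0.64, 95% interval 0.27 to 3.10), with an unadjusted p of 0.0233 and an edgeR adjusted p of 0.39. Without the 2-day RV library it was 0.81 log2.

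TLR5 (gene 488605), the flagellin receptor, and TLR10 (gene 100379585), a neighbor of TLR1 at a distance of 23481 bases, were at 0 counts in all 13 libraries. Only if reads over these genes were counted do the zeros set a limit, of up to 3 counts in each library. TLR5 is annotated on chromosome 38 from 24572699 to 24575275, wholly inside the long noncoding RNA gene LOC119877936, which had 0 to 321 counts (median 37). TLR10 is annotated on chromosome 3 from 74141129 to 74143552, wholly inside the long noncoding RNA gene LOC119876151, which had 5 to 219 counts (median 66). None of the 7 other receptors lies wholly inside another gene. In the whole table, 5.48% of protein-coding genes not wholly inside another gene (1065 of 19425) were at 0 in every library. The share was 42.3% for those wholly inside another gene (726 of 1717) and 48.2% for those wholly inside a long noncoding RNA gene (369 of 766). Partial overlaps between genes were not examined. How reads over such nested genes were counted is not given in the sources used here. The zeros therefore cannot be read as absence of TLR5 or TLR10 RNA, and the part that the position has in them was not tested.

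**Figure D2:**
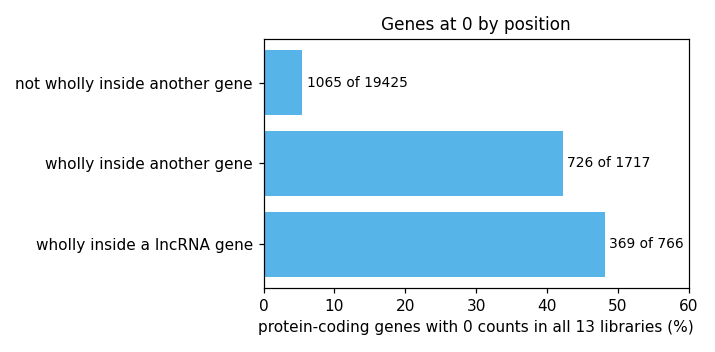
Percent of protein-coding genes with 0 counts in all 13 libraries (bars from 0), by whether the gene lies wholly inside another annotated gene. The bars stand at 5.48%, 42.3%, and 48.2%, and TLR5 and TLR10 belong to the lowest bar on the plot, genes inside a long noncoding RNA gene, which is also part of the middle one.

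Among the endosomal receptors, TLR3 (gene 482905, chromosome 16 from 45543452 to 45571950) senses double-stranded RNA. The tumors kept their places at both ends of its range at all time points. CL caudal was the highest tumor at each time point, with 55.3 CPM before treatment, 41.7 CPM early, and 43.3 CPM late. RV was the lowest, with 7.73 CPM, 15.5 CPM, and 9.29 and 9.86 CPM. CL cranial (23.8, 31.5, and 16.6 CPM) and BM (21.1, 28.4, and 17.0 CPM) lay between them. The fitted changes were 0.36 log2 early (SE 0.34, 95% interval -0.38 to 1.10) and -0.22 log2 late (SE 0.33), with edgeR adjusted p of 0.666 and 0.976.

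TLR7 and TLR8, both sensors of single-stranded RNA, are neighbors on the X chromosome, 21341 bases apart. TLR7 (gene 491743, from 9302542 to 9328038) was at 6.64 CPM in CL caudal, 5.91 CPM in CL cranial, 4.26 CPM in RV, and 2.81 CPM in BM before treatment, on 64 to 122 counts. Early it was at 13.6, 17.6, 4.32, and 11.3 CPM in that order. The 3 mammary tumors were 2.06- to 4.02-fold higher early, and RV was 1.01-fold (0.02 log2, but 0.73 log2 when scaled to library totals alone). Late, both CL tumors stayed near their early level, at 12.7 CPM in caudal and 13.5 CPM in cranial, while BM was at 3.19 CPM and RV at 3.19 and 4.17 CPM. The fitted early change was 1.18 log2 (SE 0.51, 95% interval 0.06 to 2.29, unadjusted p = 0.0399, edgeR adjusted p = 0.447).

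TLR8 (gene 100684828, from 9349380 to 9367898) was low before treatment, at 5.32 CPM in CL caudal, 4.45 CPM in CL cranial, 3.86 CPM in RV, and 2.50 CPM in BM, on 58 to 92 counts. Early it was at 13.1, 32.0, 36.4, and 17.3 CPM in that order, on 322 to 795 counts. Late it was at 6.41 CPM in CL caudal, 6.12 CPM in CL cranial, 3.19 and 5.87 CPM in RV, and 5.71 CPM in BM, on 47 to 136 counts. Every early library was above every library before treatment (2.71% of all genes) and above every late library (4.49%). The means were 4.04 ± 1.19 CPM before (SD, n = 4), 24.7 ± 11.3 CPM early (SD, n = 4), and 5.46 ± 1.30 CPM late (SD, n = 5).

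Within the tumors TLR8 was 9.43-fold higher early in RV, 7.18-fold in CL cranial, 6.90-fold in BM, and 2.46-fold in CL caudal. The fitted early change was 2.61 log2 (SE 0.51, 95% interval 1.49 to 3.72). Its unadjusted p was 0.000288 and its edgeR adjusted p 0.126, with a range of 0.124 to 0.527 over the other edgeR settings. DESeq2 gave 2.60 log2 and an adjusted p of 1.29e-05. Leaving out a tumor moved the estimate between 2.33 and 2.96. Late, the fitted change was 0.47 log2 (SE 0.46, 95% interval -0.54 to 1.47).

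TLR9 (gene 403502, chromosome 20 from 37936949 to 37947576) senses unmethylated CpG DNA. The annotation lists 2 transcripts, and which part of the gene each of the rows counts is not given in the sources used here. Row 1 held nearly all counts, 339 to 2411 per library. Before treatment it was at 20.3 CPM in CL caudal, 30.1 CPM in CL cranial, 74.6 CPM in RV, and 21.8 CPM in BM. Early it was at 36.5, 48.9, 39.0, and 76.1 CPM in that order. Late it was at 42.2 CPM in CL caudal, 83.9 CPM in CL cranial, 164 and 68.0 CPM at the RV injection and adjacent sites, and 77.7 CPM in BM. Early the 3 mammary tumors were higher than before treatment and RV was lower, by -0.93 log2 (-0.21 log2 when scaled to library totals alone), and late all 4 tumors were higher, RV by the mean of its sites.

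The fitted change of TLR9 row 1 was 0.63 log2 early (SE 0.44, edgeR adjusted p = 0.584; 0.98 without the 2-day RV library and 0.13 without BM) and 1.19 log2 late (SE 0.42, 95% interval 0.27 to 2.11, unadjusted p = 0.0153, edgeR adjusted p = 0.973). Row 2 was sparse, with 0, 14, 0, and 49 counts before treatment in CL caudal, CL cranial, RV, and BM. Early it had 15, 36, 13, and 73 counts, and late 1, 0, 0 and 4 (RV), and 67 counts. All tumors had more counts early than before, and the groups overlapped. Its fitted early change of 2.49 log2 (SE 1.31, 95% interval -0.37 to 5.35) is no bound, since libraries at 0 make it depend on the prior count. Summing both rows, an alternative added after seeing the data, left TLR9 at 0.64 log2 early and 1.18 log2 late.

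Across the family, 3 of 8 rows were higher early in all 4 tumors (TLR7, TLR8, and TLR9 row 2), as were 10.8% of all genes, and none was lower in all 4 (7.90%). For TLR7 the RV value was only 0.02 log2 (0.73 when scaled to library totals alone). TLR9 row 2 went from 0 to 13 counts in RV and from 0 to 15 counts in CL caudal. Late, 2 were higher in all 4 tumors (TLR8 and TLR9 row 1, against 7.13% of all genes), RV only by the mean of its sites. TLR8 at the RV injection site was at 3.19 CPM, below 3.86 CPM before treatment. TLR9 row 1 at the adjacent site was at 68.0 CPM, below 74.6 CPM before treatment. At the late time point 0 of 8 rows passed the edgeR threshold (0% of all genes) and 1, TLR9 row 1, was higher at an unadjusted p under 0.05 (1.28%). DESeq2 also called 0 of them late (0.0348% of all genes). The median late change was 0.26 log2 over the rows and -0.05 over all genes. Scaled to library totals alone, 2 of 32 early within-tumor values changed sign, TLR2 and TLR3 in CL caudal, as did 3 of 32 late values, TLR1 in CL caudal and TLR1 and TLR7 in BM.

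**Figure D3:**
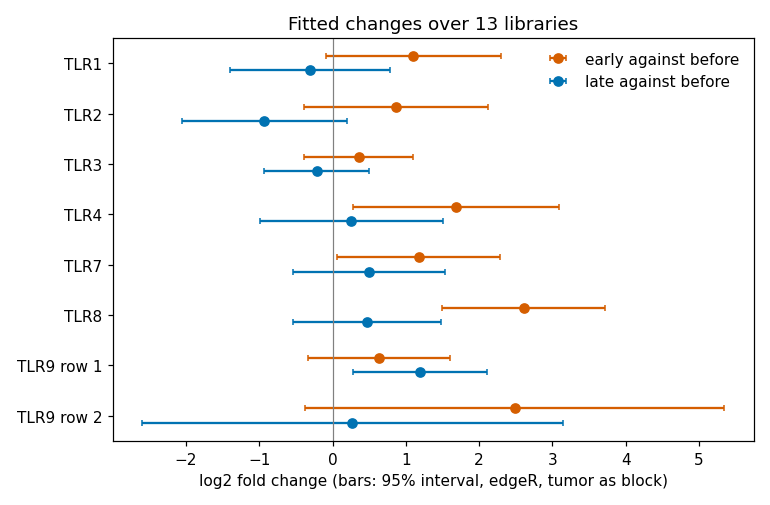
Fitted log2 fold change (horizontal axis) of the 8 tested rows early and late against before treatment, from edgeR with tumor as block over 13 libraries. Points are estimates and bars 95% intervals. The early intervals of TLR4, TLR7, and TLR8 and the late interval of TLR9 row 1 lie above 0, before adjustment over all genes.

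Early was also compared directly with late. TLR8 was higher early by 2.14 log2 (SE 0.46, edgeR adjusted p = 0.0603), TLR2 by 1.79 log2 (SE 0.53, adjusted p = 0.0794), TLR1 by 1.41 log2 (SE 0.51, adjusted p = 0.116), and TLR4 by 1.43 log2 (SE 0.59, adjusted p = 0.153). These 4 rows had an unadjusted p under 0.05, against 26.6% of all genes, and 0 passed the adjusted threshold (0.00994%). DESeq2 called 3 of them, TLR1, TLR2, and TLR8 (23.9% of all genes). The early value was above the late one for 7 of 8 rows (61.2% of all genes), and TLR9 row 1 was the exception, at -0.56 log2 (SE 0.42, adjusted p = 0.411). Without the 2-day RV library, 2 rows rather than 4 had an unadjusted p under 0.05, as did 17.0% of all genes.

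The early change was then compared between RV and the 3 mammary tumors by an interaction term, in which the single early RV library takes its spread from the others. That library is from the biopsy without definitively identified neoplastic cells, so the term does not compare sarcoma tissue with mammary carcinoma. TLR2 differed by 3.25 log2 (SE 0.70, 95% interval 1.71 to 4.80, unadjusted p = 0.000788, edgeR adjusted p = 0.0913) and TLR4 by 2.76 log2 (SE 1.05, adjusted p = 0.149), both higher in RV. TLR9 row 1 differed by -2.05 log2 (SE 0.83, adjusted p = 0.17), lower in RV. These 3 rows had an unadjusted p under 0.05, as did 24.4% of all genes, and 0 passed the adjusted threshold (0%). Without dog BM, TLR2 and TLR4 passed it, with edgeR adjusted p of 0.0344 and 0.0347, in a fit that called 9.38% of all genes. For TLR8 the difference was 0.90 log2 with a 95% interval of -1.38 to 3.19, and for TLR7 it was -1.56 log2 with an interval of -3.87 to 0.75, so that neither likeness nor difference was shown. No row had an unadjusted p under 0.05 for the late difference (2.71% of all genes).

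Marker genes of leukocytes were also higher in early libraries, and their part in the receptor values was not tested. The leukocyte list (5 of 5 genes measured, none at 0 in all libraries) summed to 246 to 394 CPM before treatment, 625 to 2023 CPM early, and 204 to 793 CPM late. Its mean early log2 change was 2.64 (RV), 2.37 (CL cranial), 2.07 (BM), and 0.40 (CL caudal), where the early fold of TLR8 was also the lowest of the 4. The macrophage list (10 of 10 measured) had mean changes of 1.41, 2.12, 3.30, and 1.23 log2 in that order, with 5, 10, 10, and 7 of the 10 genes higher. The neutrophil list (9 of 9 measured, of which 8 were tested) had mean changes of 5.88, 3.14, -0.38, and -1.03 log2 over the 8 tested genes. Its summed level went from 74.5 to 7013 CPM in RV, 4067 to 4948 CPM in CL cranial, and 2224 to 431 CPM in CL caudal. In BM it went from 704 to 1244 CPM, so that the mean over 8 genes and the sum over 9 differ in sign there. LTF is on this list and on a mammary secretory list, which summed to 4125 and 4530 CPM before and early in CL cranial. The secretory sums were 677 and 1214 CPM in BM, but 26.5 and 244 CPM in RV and 127 and 361 CPM in CL caudal. The part of LTF in the neutrophil sums was not tested. RV, where TLR2 and TLR4 differed most from before treatment, had the highest neutrophil value and an epidermal value of 6.67 log2. For the B cell list (7 of 8 measured) the mean was 0.47 log2 in RV and 1.17 to 2.23 log2 in the mammary tumors. For the T cell list (7 of 7) it was 0.25 log2 in RV and 1.26 to 3.14 log2 in the mammary tumors. Among plasmacytoid dendritic cell markers 5 of 7 were measured, with list means of 0.98 to 1.56 log2 per tumor. The summed level of these 5 was lower early in RV (252 to 172 CPM), CL caudal (367 to 226 CPM), and BM (164 to 145 CPM). Of the 5, TCF4 had a fitted early change of -0.34 log2 (SE 0.45), and the others ranged from 0.39 (BCL11A) to 2.78 (IL3RA). LILRA4 and CLEC4C were not analysed here. The endothelial list (7 of 7) was higher early in all 4 tumors, by 1.20 to 2.96 log2, and the mesenchymal list (9 of 9) ranged from -2.65 log2 in RV to 3.55 log2 in BM.

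**Figure D4:**
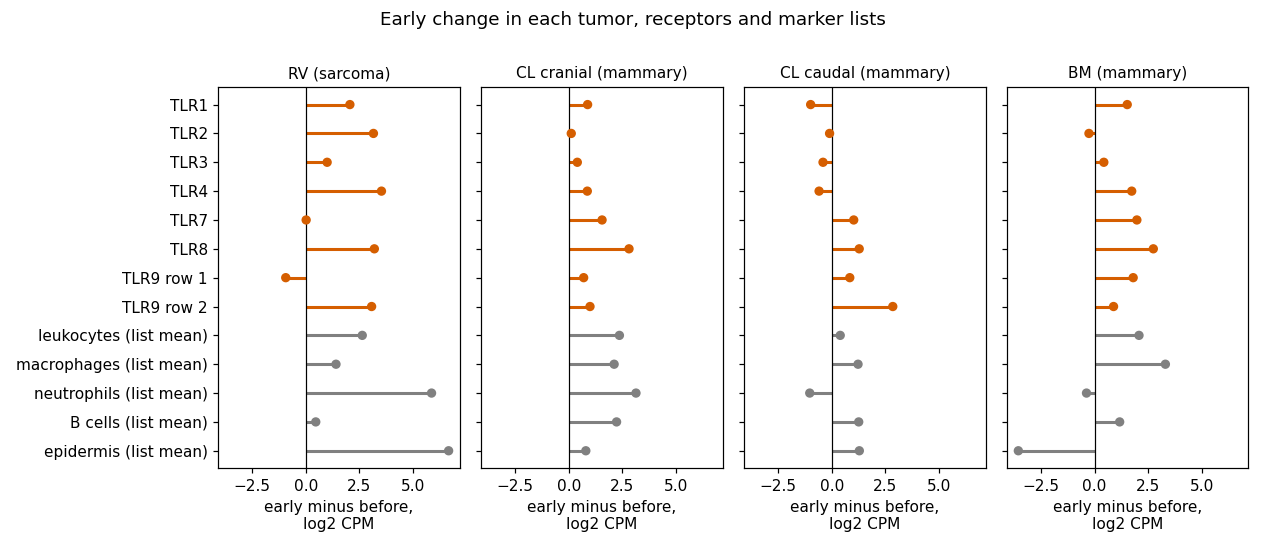
Early minus pretreatment log2 CPM (horizontal axis, same scale in each panel) in the 4 tumors, for the 8 receptor rows (orange) and the mean of 5 marker lists (grey). RV shows TLR2, TLR4, and TLR8 above 3 with TLR7 near 0 (0.73 when scaled to library totals alone), beside neutrophil and epidermal means of 5.88 and 6.67, whereas in CL caudal TLR1, TLR2, TLR3, and TLR4 lie below 0, of which TLR2 and TLR3 turn above 0 when scaled to library totals alone.

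Genes that serve the receptors were examined from 5 lists with 56 genes, of which 53 were tested. Early, 41 of 53 had a change above 0 (60.3% of all genes), 17 were higher and 1 lower at an unadjusted p under 0.05 (7.70% and 3.16% of all genes), and 0 passed the adjusted threshold (0.00497%), with a median of 0.81 log2 against 0.25 over all genes. DESeq2 called 11 of the 53 early (4.65% of all genes), all higher, including CD180, CD14, LGMN, CTSS, UNC93B1, and TICAM1. Late, 37 were above 0 (46.9% of all genes), 1 was higher at an unadjusted p under 0.05 (1.28%), and 0 passed the adjusted threshold, with a median of 0.21 log2, and DESeq2 called 0. The named genes include the 3 with the smallest p in each direction early.

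Of the 7 coreceptor and accessory genes tested, 4 were higher early at an unadjusted p under 0.05 (7.70% of all genes). CD180, a TLR4-related receptor of B cells and other leukocytes, was at 5.14 to 21.0 CPM before treatment (median 11.2), at 42.8 to 45.8 CPM early (median 45.0), and at 7.32 to 23.9 CPM late (median 12.4), with all early libraries above those before treatment (2.71% of all genes) and late (4.49%). Its fitted early change was 2.09 log2 (SE 0.43, edgeR adjusted p = 0.142). CD14, which hands lipopolysaccharide to TLR4, was at 12.8 to 28.2 CPM before treatment, at 35.9 to 321 CPM early, and at 14.5 to 90.0 CPM late. All early libraries were above those before treatment (2.71% of all genes), with a fitted change of 2.62 log2 (SE 0.60, edgeR adjusted p = 0.154). LY96 (MD-2), the lipid-binding partner of TLR4, had the same signs as TLR4, with log2 values of 3.48 for RV, 0.82 for CL cranial, -1.94 for CL caudal, and 2.13 for BM (fitted 1.62, adjusted p = 0.512). HMGB1, a nuclear protein that can act as a receptor ligand once released, was lower early in 3 of 4 tumors, with a fitted value of -0.76 log2 (adjusted p = 0.49).

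Of 10 trafficking and processing genes, 5 were higher early at an unadjusted p under 0.05 (7.70% of all genes), with a list median of 1.21 log2 against 0.25 over all genes. UNC93B1, the chaperone that carries nucleic acid-sensing receptors to endosomes, was at 5.32 to 38.0 CPM before treatment, 40.8 to 63.7 CPM early, and 11.3 to 42.2 CPM late. Its early change was above 0 in all 4 tumors (10.8% of all genes), fitted at 1.69 log2 (edgeR adjusted p = 0.183). The endosomal proteases LGMN and CTSS, which cleave the ectodomains of these receptors, had fitted early changes of 1.60 and 2.54 log2 (adjusted p = 0.147 and 0.296). LGMN was higher in 4 of 4 tumors and CTSS in 3 of 4, with CL caudal at -0.77 log2.

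All 6 adaptors had an early change above 0 (60.3% of all genes), 2 of them at an unadjusted p under 0.05 (7.70%), with a median of 1.20 log2. MYD88 was at a median of 71.5 CPM before treatment, 123 CPM early, and 143 CPM late, with a fitted early change of 0.94 log2 (edgeR adjusted p = 0.498). TICAM1, the adaptor of TLR3 and TLR4, was at 0.299 to 6.97 CPM before treatment and 5.34 to 14.7 CPM early, higher in 4 of 4 tumors (fitted 2.11, adjusted p = 0.313). TICAM2, which links TICAM1 to TLR4, was also higher in 4 of 4 tumors (1.46, adjusted p = 0.574). TIRAP, which links MYD88 to TLR2 and TLR4, had a fitted change of 0.37 log2 (adjusted p = 0.679).

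Among 20 kinases and ubiquitin ligases, 4 were higher and 1 lower early at an unadjusted p under 0.05 (7.70% and 3.16% of all genes). IRAK4, the first kinase of the MYD88 complex, had a fitted change of 0.57 log2, and the ligase TRAF6 of -0.13 log2 (edgeR adjusted p = 0.561 and 0.873). UBE2N, the ubiquitin-conjugating enzyme that works with TRAF6, was lower early in all 4 tumors (7.90% of all genes), fitted at -0.86 log2 (unadjusted p = 0.0255, edgeR adjusted p = 0.403). MAP3K7 (TAK1), the next kinase in the chain, was lower in all 4 as well, at -0.58 log2 (adjusted p = 0.541).

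Of 10 negative regulators tested, 2 were higher early at an unadjusted p under 0.05 (7.70% of all genes). TOLLIP, which restrains IRAK signaling, was higher in 4 of 4 tumors (fitted 0.76 log2, unadjusted p = 0.0283, edgeR adjusted p = 0.414). TNFAIP3 (A20), a deubiquitinase induced by NF-κB, had early differences of 5.37 log2 in RV and 1.63 in CL cranial, against -0.19 in CL caudal and -0.30 in BM (fitted 2.35, adjusted p = 0.49). SIGIRR, an inhibitory receptor with a TIR domain, was -1.92 log2 in RV and 0.91 to 2.18 log2 in the mammary tumors (fitted 1.0, adjusted p = 0.546). IRAK3, an inhibitor of the IRAK complex, had a fitted change of -0.11 log2 (adjusted p = 0.922).

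The likeness of patterns was described by Pearson's r of log2 CPM over the 13 libraries, which share tumors and scaling, so no p is given. Between members it was highest for TLR1 with TLR3 (r = 0.883) and TLR4 with TLR8 (r = 0.733), and 0.539 for the neighbors TLR7 and TLR8. TLR9 row 1 had a negative r with each of the other 7 rows, including -0.187 with TLR9 row 2. Among 12950 named genes with a median of at least 1 CPM, those most like TLR8 were ADAP2 (0.965), EVI2B (0.955), and SIRPB2 (0.947), and those most like TLR4 were DAPP1 (0.952), S100P (0.946), and FSTL4 (0.937). For TLR1 they were IRAG1 (0.952), IL18 (0.943), and PTPN12 (0.937), and for TLR2 ADGRG2 (0.960), KDM2B (0.957), and NOL4L (0.953). TLR3 was most like POC1B (0.967), SPRY2 (0.962), and OGFRL1 (0.943). The closest genes to TLR7 were less alike, KCNA3 (0.856), NEMP2 (0.823), and ADGRF5 (0.817). TLR9 row 1 was most like CORO1B (0.964), PAGR1 (0.949), and TSPAN4 (0.939), and row 2 was most like PPP6R1 (0.975), CEP250 (0.968), and PLEC (0.966).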

How the data were processed

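Strand-specific RNA-seq libraries were made from 13 tumor biopsies. The authors used Strand NGS to align the reads to CanFam4.0, and the table they deposited holds unnormalized counts for each gene symbol. The counting rule, its strand setting, and the annotation release are not given in the sources used here, so counts of overlapping genes are uncertain. Coordinates are from RefSeq's annotation of UU_Cfam_GSD_1.0.

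Libraries were grouped by time from the labels. Genes passing filterByExpr on the time group (minimum count 10) were normalized by TMM. They were fitted in edgeR 4.0.16 (R 4.3.3, limma 3.58.1) with glmQLFit (robust) and glmQLFTest, with tumor and time group as factors. For the comparison of tumor types, the interaction of time group with tumor type (sarcoma or mammary) was added. The fit without the interaction had 7 residual degrees of freedom and a common biological coefficient of variation of 0.672, and the interaction left 5. Benjamini-Hochberg adjustment ran over all 20118 genes tested, and standard errors are the fold change over the square root of F. P-values measure the spread left between libraries after tumor and time group are fitted, not the spread between dogs. The main fits take the CL tumors, which share a host, and the late RV sites as independent. CPM are scaled by TMM factors (0.773 to 1.31), and within-tumor changes are differences of log2 CPM with a prior count of 2. Each pair of libraries differed by more than sampling noise (lowest chi-square over its degrees of freedom 44.5).

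Tumor blocks pair the biopsies of 1 mass. Deviations from the group means correlated at a mean r of 0.229 (before with early), 0.587 (before with late), and 0.191 (early with late) within tumors, against -0.071, -0.199, and -0.065 otherwise.

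Genes named were all members, the 3 genes most correlated with each, 15 fixed pathway genes, and the 3 pathway genes with the smallest early p in each direction. The members and the lists, written from general knowledge, were chosen with earlier results of these data known. The models were run on simulated data with less spread than these libraries and no differences between tumors. That run cannot show how the tests behave at the spread found here. Alternatives were other scalings, no filter, other blocks, left-out tumors or libraries, summed late RV sites, only the time groups compared, a prior count of 0.5, and DESeq2 1.42.0. Tables and plots came from Python 3.11.15 (pandas 2.3.3, numpy 2.4.6, matplotlib 3.10.9).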

Additional observations from a re-analysis of the deposited data

Results flagged for a closer look

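In 24 sets of libraries, a row at a time point, 2 held a library far from the others by Dixon's test, where chance gives about 1.2. TLR2 in RV before treatment was at 2.81 log2 CPM, against 5.35 to 5.70 in the 3 mammary tumors. TLR8 at the late RV injection site was at 1.72 log2 CPM, against 2.54 to 2.70 in the other late libraries.

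In 3 cases RV moved one way from its pretreatment level and every mammary tumor the other. TLR9 row 1 was -0.93 log2 early in RV (-0.21 when scaled to library totals alone) and 0.70 to 1.80 in the mammary tumors, and the interaction term was -2.05 log2 (unadjusted p = 0.0329, edgeR adjusted p = 0.17). TLR3 was 0.30 log2 late in RV and -0.52 to -0.31 in the mammary tumors (interaction 0.70, edgeR adjusted p = 0.998). TLR7 was -0.22 log2 late in RV and 0.18 to 1.17 in the mammary tumors (interaction -1.03, edgeR adjusted p = 0.998), and the BM value turned to -0.51 when scaled to library totals alone.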

How the results depend on the processing

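Of 412 fold changes refitted under an alternative, 399 kept their direction and side of the adjusted threshold, 7 newly passed it, and 6 changed sign. The sign changes were TLR2 early without RV (-0.07 log2), TLR4 late without CL cranial (-0.0099), TLR9 row 2 late with the dog as block (-0.25), without BM (-0.36), and without RV (-0.099), and the late sarcoma difference of TLR4 without BM (-0.027). Those that passed were TLR8 early and TLR1, TLR2, and TLR8 early against late in DESeq2, TLR8 early against late with no filter (edgeR adjusted p = 0.0457), and the sarcoma differences of TLR2 and TLR4 early without BM. TLR9 row 2 late could not be fitted from the before and late libraries alone, where it did not pass the filter. Over the alternatives that leave out a tumor or library, these ran from -0.073 to 1.17 (TLR2 early), -0.0099 to 0.41 (TLR4 late), -0.36 to 1.47 (TLR9 row 2 late), and -0.027 to 0.58 (late sarcoma difference of TLR4). The causes were not tested.

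Members called were 0 in the main edgeR fits. They became 1 (DESeq2) early, 1 (no filter) and 3 (DESeq2) early against late, and 2 without BM for the early sarcoma difference, where leaving out a tumor gave 0 to 2. Members at an unadjusted p under 0.05 early numbered 3, against 1 without BM, 1 from the 2 time groups alone, and 5 in DESeq2. Late they numbered 1, against 0 without BM or CL cranial, 2 without RV or without the 2-day RV library, and 2 from the 2 time groups alone. Early against late they numbered 4, against 2 without BM, RV, or the 2-day RV library and 2 without a block. Over all genes, 1 was called early, against 17 with no filter, 936 in DESeq2, and 0 with DESeq2 size factors, without a tumor block, with the dog as block, without any 1 tumor or the 2-day RV library, with RV sites summed, or from the 2 time groups alone. Late, 0 were called in edgeR and 7 in DESeq2. Early against late, 2 were called, against 5 with upper-quartile factors, 1081 with no filter, 4809 in DESeq2, and 0 under the same other settings, DESeq2 size factors excepted. For the early sarcoma difference, 0 were called, against 1921 without BM.

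Without the replicate block by tumor, TLR8 early was 2.61 log2 (edgeR adjusted p = 0.242) and TLR4 1.42 log2, and no call of a member changed. Of the within-tumor values, that of TLR9 row 2 moved to 4.94 log2 in RV early and 4.70 in CL caudal early with a prior count of 0.5. Low counts limit TLR7, TLR8, and above all TLR9 row 2 before treatment.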
